A study of Mus musculus with 3 samples.

Results

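The olfactory receptor genes of mouse chromosome 7 were examined in 3 chromatin immunoprecipitation sequencing (ChIP-Seq) libraries of mouse embryonic stem cells (ESCs). The set held every protein-coding gene that GENCODE vM1 places on chromosome 7 of the mm9 assembly under a symbol of Olfr followed by digits. It held 233 of the 2072 protein-coding genes of that chromosome, and 22350 protein-coding genes were counted over the autosomes and X. The other 1839 protein-coding genes of chromosome 7 served for comparison. A gene was counted as called in a library when at least 1 bp of an enriched region lay within 2 kb of any of its annotated transcript starts.

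H2A.Z takes the place of the canonical histone H2A in nucleosomes at the promoters of many genes, and its acidic patch is a surface of the nucleosome to which other proteins bind. The series asked where an acidic patch mutant of H2A.Z lay in the genome next to the wild-type protein and next to H3K27me3, the histone mark laid down by Polycomb repressive complex. The first library, H2A.Z WT, came from ESCs with wild-type H2A.Z fused to yellow fluorescent protein (YFP), and the second, H2A.Z AP3, from ESCs in which 3 acidic patch residues of the fusion protein were exchanged for those of H2A. Both were precipitated through the YFP tag with an antibody to GFP, while the H3K27me3 library was precipitated with an antibody to that mark and bears a wild-type genotype label. The tagged proteins were made from a doxycycline-inducible transgene under a CMV promoter in ESCs sorted for YFP, with the endogenous H2A.Z depleted by a hairpin RNA, so that the amount and timing of the tagged protein follow the transgene. The labels give the strain as V6.5 while the treatment text describes transgenic KH2 lines. There was 1 library per group, so no difference between libraries could be tested against replicates. No expression data were analysed here, and the cell type label was not checked against marker genes.

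Olfactory receptors are seven-transmembrane, G protein-coupled receptors of the olfactory sensory neurons. Their genes stand in long tandem clusters, the coding sequence usually lies within a single exon, and each mature neuron expresses one receptor gene from one allele. The large cluster around the beta-globin genes on mouse chromosome 7 is known as the home of the class I receptors, the class that resembles the receptors of fish. Outside the olfactory epithelium most of these genes are silent, and their starts are poor in CpG, the dinucleotide that is dense at the promoters of most other genes.

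In these annotations 195 of the 233 genes had 1 exon and 202 had 1 transcript. The coding sequences ran from 912 to 1038 bp, with a median of 948 bp. For 140 of the genes the most upstream annotated start was the first base of the coding sequence, and for the other 93 it lay a median of 66 bp before it. The windows around the starts therefore rest in most cases on models without an untranslated leader, and a promoter farther upstream would lie outside what was annotated.

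The receptors share short stretches of coding sequence, and these are shown first because several of the enriched regions lay over them. The 30-base stretch with the highest agreement over all 233 aligned coding sequences began at a median position of 357 in the coding sequence, and on average 83.8% of the genes carried the commonest base at each position. It is given here for 6 of the 7 genes in which an H2A.Z WT region covered all 30 bases, and then for 4 CpG-rich genes without a region (Olfr543, Olfr544, Olfr545 and Olfr691), each 5′ to 3′ on the coding strand in mm9 with CpG in capitals.
Olfr1344, chr7:6392969-6392998, plus strand: gatggccctggacCGctgcctggctgtgtg
Olfr1349, chr7:6467732-6467761, minus strand: catggcctgggatCGctttctggccatctg
Olfr549, chr7:109703156-109703185, plus strand: catggcatttgacCGctatgtggccatctg
Olfr554, chr7:109789118-109789147, plus strand: catggcttttgacCGctatgtagccatctg
Olfr599, chr7:110486926-110486955, plus strand: catggcctttgacCGatatgtCGccatctg
Olfr523, chr7:147362380-147362409, plus strand: gatggcttatgacCGctacctggccatctg
Olfr543, chr7:109625988-109626017, minus strand: catggctctagatCGctatgtggccatttg
Olfr544, chr7:109633241-109633270, minus strand: catggctctagatCGctatgtggctatctg
Olfr545, chr7:109642896-109642925, minus strand: catggctctagatCGctatgtggctatctg
Olfr691, chr7:112485843-112485872, minus strand: catggcctttgacCGctttatagccatctg
At least 1 CpG stood in this stretch in 10 of the 10 genes with H2A.Z WT in their coding sequence and in 196 of the 223 others, or 87.9%. At least 2 CpG stood in it in 3 of the 10 and in 32 of the 223.

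H2A.Z WT lay near few of these genes. Of the 233 receptor genes 13 were called, or 5.58% (95% Wilson interval 3.29 to 9.31), against 55.8% of the other protein-coding genes of the chromosome (1027 of 1839, interval 53.6 to 58.1). H2A.Z AP3 was called at 1 receptor gene, Olfr549, or 0.429% (0.0758 to 2.39), against 19.8% of the other genes (364). H3K27me3 was called at 0 of 233, which allows a share of up to 1.29% taken as 3 genes of the total (Wilson upper bound 1.62%), against 15.4% of the other genes (283). The difference between the other genes and the receptor genes was 50.3 percentage points for H2A.Z WT (45.9 to 53.5), 19.4 points for H2A.Z AP3 (16.7 to 21.3) and 15.4 points for H3K27me3 (13.1 to 17.1). These intervals cover counting error only, and genes of one cluster are neighbours rather than independent replicates. The number of reads behind each list is unknown, so shares may be compared between gene sets within a library but not as levels between libraries.

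**Figure D1:**
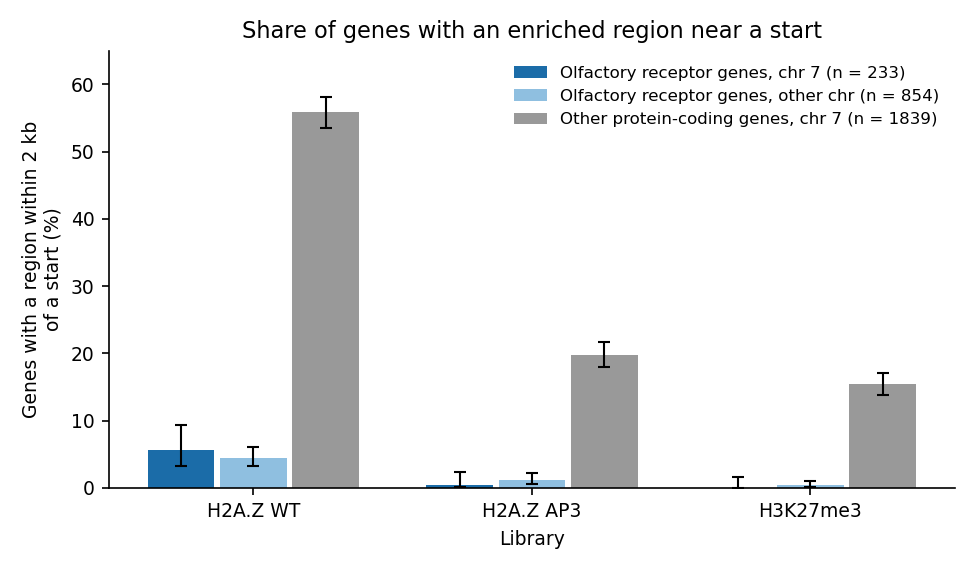
Share of genes (%, vertical axis) with an enriched region within 2 kb of an annotated start in each library, for the 233 olfactory receptor genes of chromosome 7, the 854 of other chromosomes and the 1839 other protein-coding genes of chromosome 7; error bars are 95% Wilson intervals. Receptor genes lie far below the other genes in each library, at 5.58% against 55.8% for H2A.Z WT.

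By combination of libraries, 220 of the receptor genes had no region, 12 had H2A.Z WT alone and Olfr549 had H2A.Z WT and H2A.Z AP3. Of the receptor genes with H2A.Z WT, 1 of 13 also had H2A.Z AP3, or 7.69% (1.37 to 33.3), against 339 of 1027 other genes with H2A.Z WT, or 33.0% (30.2 to 35.9). These intervals overlap, so a lower share of mutant among the called receptor genes could not be told from counting error.

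The authors also deposited a list at the stricter threshold of 1e-12 for each library. There H2A.Z WT was called at 12 receptor genes beside 54.6% of the other genes, H2A.Z AP3 at 2 beside 16% and H3K27me3 at 0 beside 13.2%. Of the H2A.Z WT calls 11 stood in both lists, while Olfr522 and Olfr532, each with a single 25-bp bin, were lost and Olfr550 was gained. A stricter list that is not contained in the looser one was seen for 3 of the 41 H2A.Z WT regions in the receptor clusters and for 2 of the 3 H2A.Z AP3 regions.

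Most regions lay over the receptor's own coding sequence, and only those of Olfr1344 and Olfr658 covered the most upstream start. Of the 13 H2A.Z WT regions 10 overlapped the coding sequence and 7 lay wholly within it. The midpoints of these 10 stood 326 to 661 bp past the start, with a median of 459.5 bp. Over all 233 genes the share with H2A.Z WT at a given position was highest 300 bp past the start, at 3.43%, and was 0.858% at the start itself. In the other genes it was highest 200 bp past the start, at 29.5%, and was 21.8% at the start.

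The longest regions belonged to Olfr1344 and Olfr1349, a pair of receptor genes in the most proximal cluster. At Olfr1344 H2A.Z WT covered 1000 bp (chr7:6392526-6393525), which took in the annotated start and 94.8% of the coding sequence and also overlapped the annotated gene Gm16532, and neither H2A.Z AP3 nor H3K27me3 covered any base. At Olfr1349 it covered 1000 bp (chr7:6467151-6468150) and 100% of the coding sequence, again with 0 bp of the other libraries in the 1e-09 lists. In the 1e-12 list H2A.Z AP3 had 225 bp there (chr7:6467326-6467550), inside the wild-type region. The coding sequences of these receptors were 58.8% identical to each other, so the pair does not consist of close copies.

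Toward the distal end of the chromosome H2A.Z WT lay over the coding sequence of 3 receptor genes of one cluster. At Olfr524 H2A.Z WT covered 925 bp (chr7:147387576-147388500) and 82.5% of the coding sequence. At its neighbour Olfr523 it covered 400 bp (chr7:147362201-147362600), or 42.1% of the coding sequence. Olfr532, in the same cluster, had 25 bp (chr7:147605226-147605250), or 2.70% of its coding sequence. All 3 genes had 0 bp of H2A.Z AP3 and of H3K27me3.

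In the largest cluster 5 genes carried H2A.Z WT in the coding sequence. Olfr554 had 525 bp (chr7:109788826-109789350), 55.2% of its coding sequence. Olfr549 had 450 bp (chr7:109703001-109703450), 47.5%. Olfr552 had 200 bp (chr7:109753276-109753475) and Olfr599 had 200 bp (chr7:110486801-110487000), which came to 21.0% and 21.2%. Olfr610 had 125 bp (chr7:110654901-110655025), 13.2%. Only Olfr549 among these 5 held H2A.Z AP3, as 75 bp (chr7:109703201-109703275) inside the wild-type region, and none held H3K27me3. Olfr550, in the same cluster, had no region at 1e-09 and 400 bp of H2A.Z WT at 1e-12 (chr7:109727176-109727575), over 42.2% of its coding sequence.

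The remaining 3 calls did not touch coding sequence. Olfr658 had 400 bp (chr7:111795476-111795875) over its start and its first, non-coding exon, with a CpG observed over expected ratio of 0.537 in the region. Olfr503 had 425 bp (chr7:115686026-115686450) ending 1.591 kb before its start, outside the gene, and Olfr522 had 25 bp (chr7:147350426-147350450) ending 1.513 kb before its start. These receptors also had 0 bp of H2A.Z AP3 and of H3K27me3. Olfr503 and Olfr658 were each other's closest relative on the chromosome, at 97.1% identity in coding sequence. The Olfr658 region ran from -56 to 343 bp about its start, and its coding sequence begins 1935 bp past that start. The model of Olfr503 begins with its coding sequence. Both regions thus lay upstream of coding sequence, and whether they are copies of each other was not tested.

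**Figure D2:**
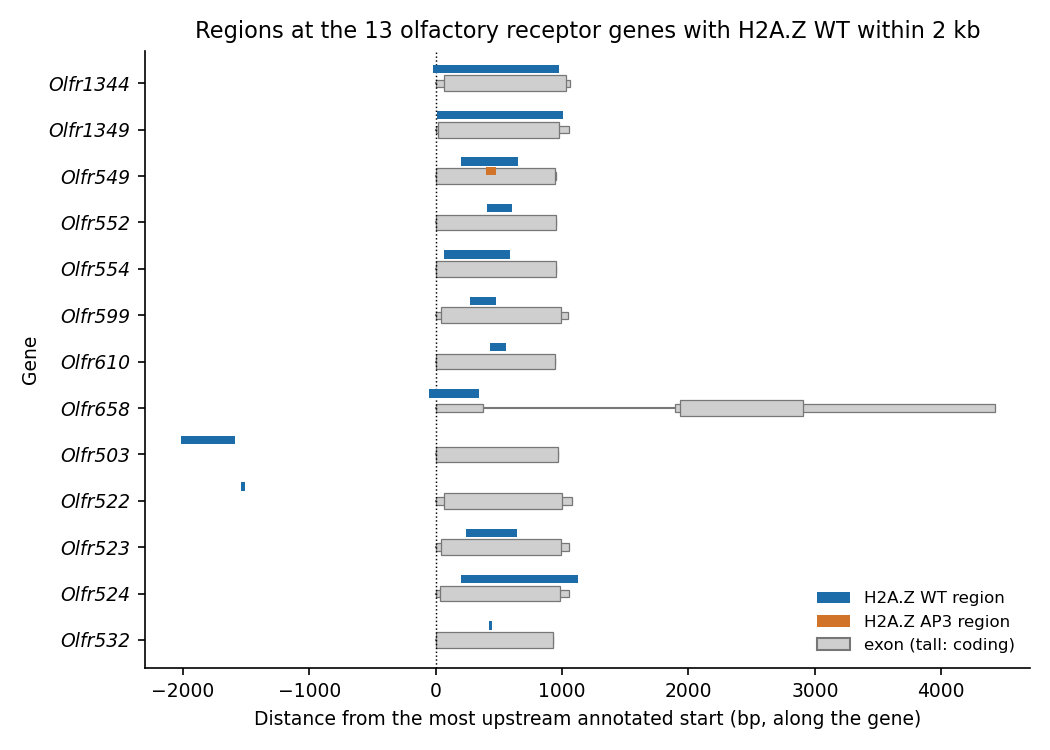
Enriched regions (1e-09 lists) and exons of the 13 olfactory receptor genes with H2A.Z WT within 2 kb, by distance in bp from the most upstream annotated start in the direction of the gene; tall boxes are coding sequence. In 10 genes the H2A.Z WT bar overlaps the coding exon, and H2A.Z AP3 appears at Olfr549 alone.

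Counted by bases, 2.07% of the 221545 bp of receptor coding sequence on chromosome 7 lay in H2A.Z WT regions, against 0.224% of the rest of the receptor clusters, a ratio of 9.21. Without the cluster of Olfr1344 and Olfr1349 the ratio was 5.58, and leaving out any other cluster gave 9.10 to 10.6. On the other chromosomes 1.81% of receptor coding sequence and 0.297% of the rest of the clusters were covered, a ratio of 6.08, and the coding sequence was covered more than the rest on 13 of 16 chromosomes. There 25 of the 38 receptor genes called for H2A.Z WT had the region in coding sequence. Several of the 13 chromosomes had such a region in only 1 receptor gene, as on chromosome 2, with 100 bp of coding sequence covered. Chromosome 11 had the most, with 7 such genes. On chromosomes 3 and X neither part was covered. H2A.Z AP3 covered 0.0339% of the coding sequence on chromosome 7, all at Olfr549, and 0.0120% of the rest, and H3K27me3 covered 0% and 0.0254%.

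GC content moved with this difference. The median GC content of the 51 H2A.Z WT regions in the clusters was 57.7%, the lowest was 48%, and 49 of the 51 lay above 50%. Receptor coding sequences had a median GC content of 46.3%, against 38.8% in 950-bp tiles of the clusters that held no receptor coding sequence. The tiles still took in the other coding genes of the clusters, at which 12 of the 51 H2A.Z WT regions lay. A comparison with tiles free of those genes was not made. Over all GC contents 10 of 233 coding sequences (4.29%, 2.35 to 7.72) and 48 of 5473 tiles (0.877%, 0.662 to 1.16) overlapped an H2A.Z WT region. Below 45% GC, 0 of 82 coding sequences and 4 of 4776 tiles (0.0838%) had H2A.Z WT. From 45% to 50% it was 4 of 114 coding sequences (3.51%, interval 1.37 to 8.68) and 12 of 561 tiles (2.14%, 1.23 to 3.70). From 50% to 55% it was 3 of 30 (10%, 3.46 to 25.6) and 24 of 106 (22.6%, 15.7 to 31.5), and at 55% and over it was 3 of 7 (42.9%, 15.8 to 74.95) and 8 of 30 (26.7%, 14.2 to 44.4). Within each class the intervals overlapped and the coding sequences had the lower share in 2 of the 4 classes, so a difference was not detectable within these GC classes. In classes of CpG number the picture differed at the top: with 20 or more CpG, 6 of 18 coding sequences (33.3%, 16.3 to 56.3) and 13 of 123 tiles (10.6%, 6.28 to 17.2) had H2A.Z WT, a difference of 22.8 points (4.45 to 46.1). With 15 to 19 CpG the coding sequences stood 1.27 points higher (-10.7 to 21.6), with 10 to 14 they stood at 0% against 2.56% of tiles, and with fewer they stood 0.527 points higher (-0.169 to 4.18), each interval holding 0.

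**Figure D3:**
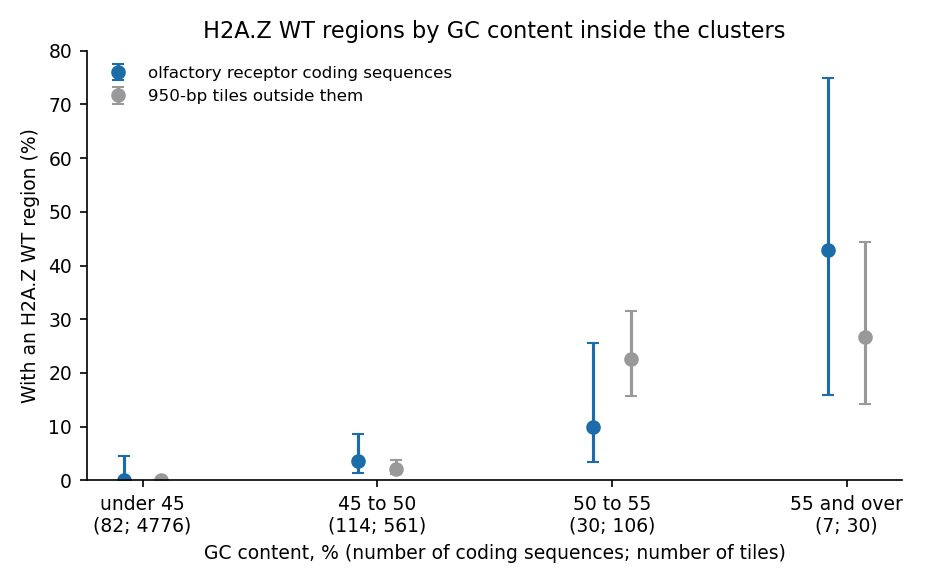
Share (%) of olfactory receptor coding sequences and of 950-bp tiles elsewhere in the clusters that overlap an H2A.Z WT region, by class of GC content; bars are 95% Wilson intervals and the numbers under each class are coding sequences and tiles. Both shares are higher at higher GC content, with overlapping intervals in every class.

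The number of CpG in the coding sequence differed among the receptor genes from 1 to 40. Olfr1344 and Olfr1349 held the most, with 40 and 39, followed by Olfr524 with 28, and all 3 were called. A region lay in the coding sequence of 6 of the 18 genes with 20 or more CpG (33.3%, 16.3 to 56.3), of 3 of the 22 with 15 to 19 (13.6%), of 0 of the 70 with 10 to 14 and of 1 of the 123 with fewer (0.813%). The last of these was Olfr532 with its 25-bp bin. Receptor genes of the other chromosomes stood at 19 of 37 (51.4%), 1 of 38 (2.63%), 5 of 128 (3.91%) and 0 of 651 in the same classes. The 10 genes with H2A.Z WT in the coding sequence had a median of 22 CpG there, and the other 223 a median of 9.

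CpG was also counted in short stretches, without matching genes for their total number of CpG. The richest 30 bases of the coding sequence held at least 3 CpG in 9 of the 10 genes with H2A.Z WT in it and in 54 of the 223 others (24.2%). These stretches are shown for 2 covered genes, for Olfr544, which had no region, and for Olfr298, the receptor gene farthest from any H2A.Z WT region, with CpG in capitals.
Olfr1344, chr7:6393013-6393042, plus strand: atgCGaccctggtgacCGcccccCGctgCG
Olfr1349, chr7:6468075-6468104, minus strand: atcagagcCGagcaCGCGagctggagttCG
Olfr544, chr7:109633112-109633141, minus strand: ggtgctggcctCGCGggttCGcttctgtCG
Olfr298, chr7:93638012-93638041, minus strand: ataacagggttcatccttatgggattctCG
H2A.Z WT covered all 30 bases in the first 2 of these genes. Olfr544 held as many CpG in its richest 30 bases as they did, 4, and 26 in its whole coding sequence. Only 52.3% of the 32-base stretches of its coding sequence occur once in the genome, however. In Olfr641 that share was 100%, with 5 CpG in the richest 30 bases and 18 in the whole coding sequence. The nearest H2A.Z WT region lay 72.7 kb from its start. The CpG number alone thus did not set called and uncalled genes apart.

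How much of a coding sequence occurs once in the genome also moved with the calls. Reads from near-identical copies can be lost or shared between them, and how such reads were treated is not given in the sources used here. The median share of 32-base stretches that occur once in mm9 was 100% in the coding sequences of the 10 genes with H2A.Z WT in them and 82.7% in the other 223. All 10 lay at 80% or above. At 80% or above, 6 of 15 genes with 20 or more CpG had a region in the coding sequence (40%, 19.8 to 64.3), against 4 of 112 with fewer (3.57%, 1.40 to 8.82). Below 80% it was 0 of 3 and 0 of 103. The 3 were Olfr521, Olfr544 and Olfr545. The closest relative on the chromosome was a median of 65.8% identical in coding sequence for the 10 genes (58.8% to 91.5%) and 85.6% for the others (58.9% to 99.5%). The part that lost reads play in the calls was not tested. Around the starts the receptor genes and the other genes were close in this measure, with medians of 92.3% and 94.9%, and over genes with at least 80% of the window unique H2A.Z WT was called at 11 of 194 receptor genes and 997 of 1474 others.

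**Figure D4:**
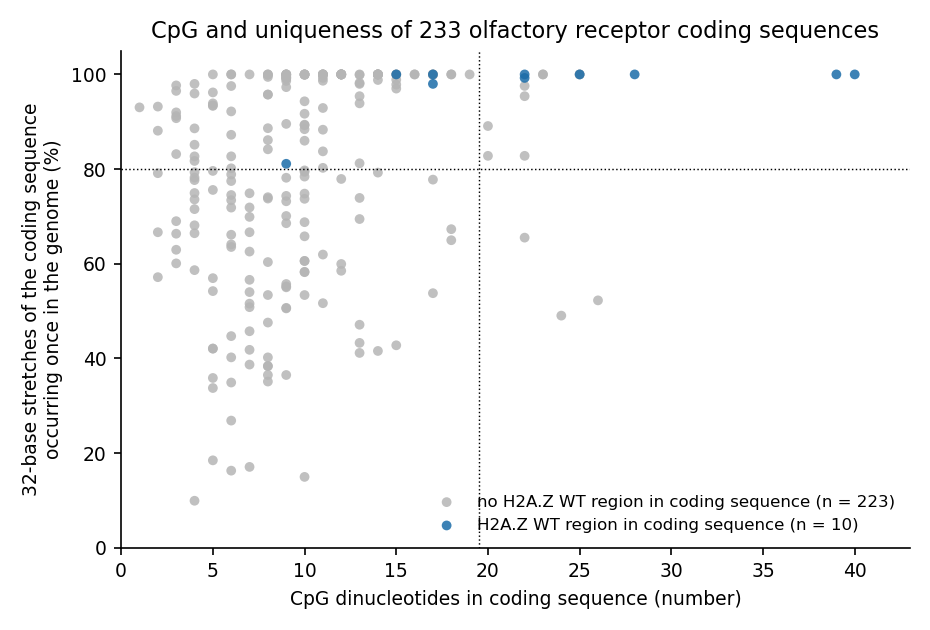
Number of CpG in the coding sequence (horizontal axis) against the share of its 32-base stretches that occur once in the genome (%, vertical axis) for the 233 olfactory receptor genes; dotted lines mark 20 CpG and 80%. The 10 genes with H2A.Z WT in the coding sequence all lie above 80%, 6 of them at 20 CpG or more.

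At the starts the receptor genes were poor in CpG. The CpG observed over expected ratio within 500 bp of the most upstream start had a median of 0.139 and a maximum of 0.409, against a median of 0.417 in the other genes, and the median GC content was 40.5% against 54.1%. Among genes with a ratio below 0.2, H2A.Z WT was called at 4 of 189 receptor genes (2.12%) and 106 of 592 others (17.9%), a difference of 15.8 points (11.5 to 19.3). From 0.2 to 0.4 it was called at 7 of 42 (16.7%) and 173 of 302 (57.3%), a difference of 40.6 points (25.6 to 50.6). The pair above 0.4, Olfr658 and Olfr1349, were both called, and no receptor gene reached 0.6, the class in which 80.4% of the other genes were called. In both lower classes the interval of the difference lay above 0. Genes in a class were not matched for GC content. For 140 of the receptor genes the stretch used for the ratio was centred on the first base of coding sequence.

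Joined where neighbours lay at most 500 kb apart, the 233 genes formed 8 clusters of 5.64 Mb in total. The largest, from Olfr543 to Olfr692, spans 2.89 Mb (chr7:109625287-112517869) with 124 receptor genes and 33 other coding genes, of which the beta-globin genes Hbb-b1, Hbb-b2, Hbb-bh1, Hbb-bh2 and Hbb-y had no region of any library. H2A.Z WT was called at 6 of the 124, at 4 of the 19 genes of the distal cluster (Olfr522 to Olfr541), at 2 of 8 in the cluster of Olfr1344 and at 1 of 40 in the cluster from Olfr467 to Olfr519. The 23 genes from Olfr693 to Olfr716 held no call. The 15 genes from Olfr310 to Olfr292 and the pair Olfr520 and Olfr521 had no region of any library anywhere in their clusters.

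Across all clusters H2A.Z WT had 51 regions, or 9.04 per Mb, covering 0.297% of the sequence, against 31.6 per Mb and 1.15% in the rest of the chromosome. H2A.Z AP3 had 6 regions, 1.06 per Mb and 0.0129%, against 5.45 per Mb and 0.118%. H3K27me3 had 7 regions, 1.24 per Mb and 0.0244%, against 7.72 per Mb and 0.453%. Of the H2A.Z WT regions 13 stood at receptor genes, 12 at other coding genes and 26 away from coding genes. Of these 26, 24 overlapped no annotated gene, 1 lay over the pseudogene Gm8018 (chr7:92028176-92028350) and 1, of 200 bp, over the receptor pseudogene Olfr647-ps1 (chr7:111316326-111316525). The 7 H3K27me3 regions all stood away from coding genes. The longest H2A.Z WT region of the clusters, 1100 bp, lay in 5830411N06Rik and not in a receptor gene.

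**Figure D5:**
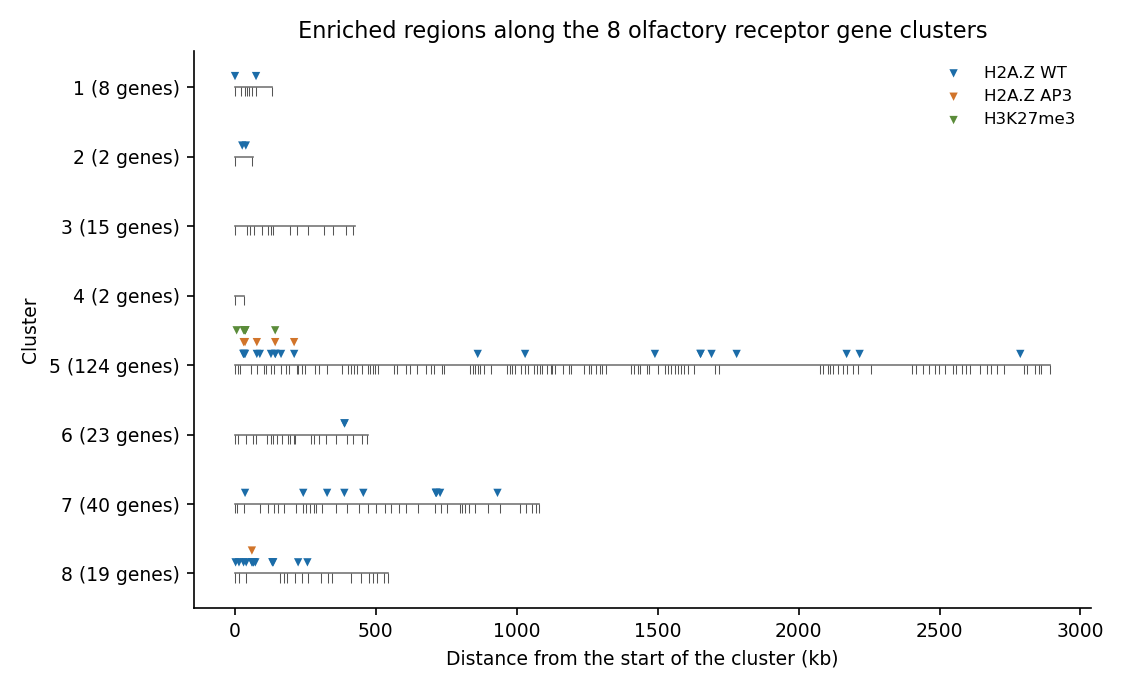
Enriched regions (triangles, by library) along the 8 olfactory receptor clusters of chromosome 7, by distance from the start of the cluster in kb; grey ticks are the most upstream starts of receptor genes. The 7 H3K27me3 regions all lie near the proximal end of the 124-gene cluster. The clusters of 15 and of 2 genes numbered 3 and 4 hold no region of any library.

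One stretch of 7.65 kb between Olfr545 and Olfr547 (chr7:109655301-109662950) held regions of all 3 libraries, and was singled out after its values were seen. It starts 12.01 kb past the end of Olfr545, ends 20.3 kb before Olfr547 and contains no annotated gene. H2A.Z WT had 4 regions there over 1025 bp, H2A.Z AP3 had 2 over 350 bp and H3K27me3 had 5 over 1325 bp. These included the longest H2A.Z AP3 region of the clusters, 200 bp, and the longest H3K27me3 region, 550 bp. The bases shared by all 3 libraries in the clusters came to 75 bp (chr7:109661326-109661400), all in this stretch, and their central 30 bases hold no CpG. They lie at the edge of an H2A.Z WT region of 425 bp (chr7:109661326-109661750) that is rich in CpG. It holds 34 CpG, with an observed over expected ratio of 0.740 and 66.6% GC. The H2A.Z AP3 region over the shared bases holds 2 CpG and the H3K27me3 region 13.
Shared bases, chr7:109661348-109661377, plus strand: gagattactgggccagggtctagggttcag
At Olfr549 the 75 bp shared by wild-type and mutant H2A.Z in the coding sequence hold 1 CpG in their central 30 bases.
Olfr549, chr7:109703223-109703252, plus strand: gtaattgttaggatCGgcttggctgtggtc
Of the 725 bp of H2A.Z AP3 in the clusters, 325 bp overlapped H2A.Z WT alone, 275 bp H3K27me3 alone and 75 bp both.

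Most receptor genes lay far from any region. The median distance from a start to the nearest H2A.Z WT region was 66.7 kb over the 233 genes, with quartiles of 24.5 and 187 kb, against 0.414 kb in the other genes. For H2A.Z AP3 the medians were 411 and 30.03 kb, and for H3K27me3 690 and 74.1 kb. The uncalled genes nearest to H2A.Z WT were Olfr479 at 2.105 kb, just outside the window, Olfr502 at 3.42 kb and Olfr553 at 4.425 kb. The called genes farthest from their H2A.Z WT region were Olfr503 at 1.591 kb, Olfr522 at 1.513 kb and Olfr610 at 0.433 kb. Olfr298 was farthest from H2A.Z WT, at 729 kb, and from H2A.Z AP3, at 1788 kb. Olfr640 was farthest from H3K27me3, at 1402 kb, and Olfr544 was nearest to it, at 2.057 kb.

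The other coding genes inside the clusters were called seldom too. Of these 38 genes, which were not counted as receptor genes, H2A.Z WT was called at 3 (7.89%, 2.72 to 20.8): Trim21 with 475 bp and Trim68 with 575 bp, both tripartite motif genes, and 4931431F19Rik with 1025 bp. Trim68 also had 75 bp of H2A.Z AP3, and H3K27me3 was called at 0 of the 38. The 7 genes named Olfr with a -ps1 ending that are annotated as protein coding, kept out of the set by their symbols, had 0 calls for H2A.Z WT.

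Other tandem families of chromosome 7 fell on both sides. The vomeronasal receptor genes, which serve pheromone detection, had 0 calls in any library among 103 Vmn1r and 51 Vmn2r genes, which allows shares of up to 2.91% and 5.88% on the same bound of 3 genes. Their windows were far less unique, at medians of 37.9% and 47.5%, than those of the olfactory receptor genes. Among the Mrgpr genes, receptors of sensory neurons, H2A.Z WT was called at 3 of 19 (15.8%, 5.52 to 37.6), among the kallikrein (Klk) protease genes at 8 of 27 (29.6%, 15.9 to 48.5), among the Trim genes at 5 of 17 (29.4%, 13.3 to 53.1) and among the Zfp zinc finger genes at 62 of 87 (71.3%, 61.0 to 79.7). The 5 Hbb genes, 1 Scgb gene and 1 Usp17l gene had 0 calls. H2A.Z AP3 was called at 1 Mrgpr, 1 Klk, 2 Trim and 32 Zfp genes, and H3K27me3 at 1 Klk and 4 Zfp genes.

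The receptor genes of the other chromosomes were called seldom when pooled, with a wide spread between chromosomes. H2A.Z WT was called at 38 of 854 (4.45%, 3.26 to 6.05), H2A.Z AP3 at 10 (1.17%) and H3K27me3 at 3 (0.351%), against 65.4%, 24.7% and 19.4% of the other genes there. The pooled interval for H2A.Z WT overlaps that of chromosome 7. By chromosome the share for H2A.Z WT was 2 of 282 (0.709%) on chromosome 2, 1 of 127 (0.787%) on chromosome 9 and 0 of 63 on chromosome 19. It was 6 of 24 (25%) on chromosome 4, 6 of 27 (22.2%) on chromosome 6 and 5 of 9 (55.6%) on chromosome 15.

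Genes that act with the receptors were counted on whichever chromosome they stand. In a list of 11 genes of odour transduction and receptor export, H2A.Z WT was called at 8 (72.7%, 43.4 to 90.3), H2A.Z AP3 at 3 and H3K27me3 at 3 (each 27.3%, 9.75 to 56.6). Over all 22350 protein-coding genes the shares were 61.7%, 23.2% and 18.2%, within those intervals, so the list was not set apart from genes at large. Omp, the olfactory marker protein, had 1250 bp of H2A.Z WT and Cnga4, a subunit of the transduction channel, had 550 bp, and both stand on chromosome 7. Adcy3, the adenylyl cyclase of the pathway, had 2125 bp, and Ano2, a calcium-gated chloride channel, had 2350 bp. Reep1 had 1725 bp of H2A.Z WT, 750 bp of H2A.Z AP3 and 1625 bp of H3K27me3, and Slc24a4, a sodium/calcium exchanger, had 1650, 75 and 2725 bp. The calls at Rtp1 and Rtp2 rested on few bases: Rtp1 had 156 bp of H2A.Z WT and 56 bp of H2A.Z AP3, and Rtp2 had 25 bp of H2A.Z WT. Cnga2, Cngb1 and Stoml3 had 0 bp of each library.

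Among 5 regulators of receptor choice, H2A.Z WT and H3K27me3 were each called at 3 (60%, 23.1 to 88.2) and H2A.Z AP3 at 2 (40%, 11.8 to 76.9), beside the same shares of 61.7%, 18.2% and 23.2% over all genes. The all-gene share lay inside the list's interval in each H2A.Z library. In the H3K27me3 library it lay below, at 18.2% against an interval of 23.1 to 88.2. That difference rests on 3 of 5 genes. The list was chosen with earlier results of these data known, so it cannot show whether the regulators differ from genes at large. With 5 genes the counts of the H2A.Z libraries say little. The transcription factor genes Lhx2, Emx2 and Ebf1 had 2152, 2125 and 1750 bp of H2A.Z WT and 8100, 5571 and 3407 bp of H3K27me3. Of these Emx2 alone also had H2A.Z AP3, 400 bp. Kdm1a, a histone demethylase gene, had 450 bp of H2A.Z AP3 and neither of the other libraries, and Ldb1, which encodes a cofactor of Lhx2, had no region. Both lists, like the families above, were counted with the window used for the receptor genes.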

How the data were processed

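The authors aligned reads to mm9 with Bowtie 0.12.3, extended them to the fragment length, counted them in 25-bp bins and kept bins enriched under a Poisson model and over input. The deposited files are lists of enriched regions (chromosome, start, end) at 1e-09 and, for a second list named 1e-12, a stricter threshold that the methods do not describe. They hold no read counts, heights or scores of other kinds, so depth is unknown.

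Regions were intersected with GENCODE vM1 starts on the mm9 genome, with coverage, CpG, GC and unique 32-mers computed in Python 3.11.15 and NumPy 2.4.6. Coding sequences were aligned with MAFFT 7.526. Shares carry 95% Wilson intervals, and differences of shares Newcombe intervals. With 1 library per group no test was made. Coverage counting was tested on simulated data (200 lists, 0 mismatches). Genes named were every called receptor gene, the nearest and farthest to regions, the longest regions and genes called at 1e-12 alone. Outside this rule, Olfr521, Olfr543, Olfr545, Olfr641 and Olfr691 were named as CpG-rich genes without a region, with the calls known. Genes at the ends of clusters were named to place the clusters. Members and lists were chosen with earlier results of these data known. The GC and CpG classes of coding sequence, the tiles and the clusters left out in turn were added after the data were seen. Promoter sequences of another build were not used. The shared stretch of 1 further covered gene is not reported here.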

Additional observations from a re-analysis of the deposited data

How the results depend on the processing

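H2A.Z WT was called at 11 to 17 receptor genes under 10 of 11 alternative settings and at 25 with windows of 10 kb. H2A.Z AP3 was called at 2 with the 1e-12 list, either list, or windows of 5 or 10 kb. H3K27me3 was called at 2 and 4 with windows of 5 and 10 kb. Over gene bodies with 2 kb added each side it was called at 1, Olfr544, through a 25-bp region outside the gene. H2A.Z AP3 was called at 567 other genes at 10 kb. The difference in share had the same direction in every class and chromosome compared. For H2A.Z WT it was 15.8 and 40.6 points in the CpG classes below 0.2 and from 0.2 to 0.4. It was 55.9, 71.6, 39.2, 69.6, 65.1, 62.4, 61.5, 57.2 and 67.3 on chromosomes 1, 2, 4, 9, 10, 11, 16, 17 and 19. For H2A.Z AP3 it was 4.90 in the lower class, and 22.96, 24.3, 13.4, 37.0, 25.1, 22.8, 23.3, 24.6 and 23.8 on chromosomes 1, 2, 4, 6, 9, 10, 11, 16 and 19. For H3K27me3 it was 3.21 and 11.3 in the classes, and 22.1, 23.2, 20.5, 19.8, 20.7, 17.3, 20.4, 18.6, 13.03 and 17.9 on chromosomes 1, 2, 4, 6, 9, 10, 11, 13, 17 and 19. With clusters joined at 200 kb, at 1 Mb, with the 1e-12 list and with either list, coverage by H2A.Z WT was 0.316%, 0.320%, 0.246% and 0.321%. That by H2A.Z AP3 was 0.0369% at 1 Mb, 0.00709% with the 1e-12 list and 0.0195% with either. That by H3K27me3 was 0.0260% at 200 kb, 0.0218% at 1 Mb and 0.0124% with the 1e-12 list. Coding coverage by H2A.Z WT was 2.25% with either list. The share of coding sequences minus that of tiles with H2A.Z WT was 3.41 points over all GC contents, and -0.0838 and -12.6 points below 45% and from 50% to 55% GC, against 1.37 and 16.2 points in the other classes. By CpG number it was -2.56 points from 10 to 14 and 22.8 points at 20 or more. The settings on the list for coverage and the GC and CpG classes of tiles were chosen after seeing the data, and the cause of each shift was not tested. Classes of CpG and chromosomes with fewer than 10 receptor genes were not run. Soft-masked repeats were not computed, since the genome used carries no masking. No paired analysis was possible because each group had 1 library, and for the same reason no replicate could be left out. Depth, which the lists do not give, limits every count of 0.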
